A study of Rattus norvegicus with 8 samples.

Results

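The comparison described here set 4 arrays from FRTL-5 cells carrying the L629F form of the human TSH receptor against 4 arrays from FRTL-5 cells carrying the wild type human receptor, which is all 8 arrays of the series. The arrays were assigned to a line by the receptor named in their labels. FRTL-5 is a permanent line of rat thyroid follicular cells, and the labels name the sub-clone SB5 for all arrays. Every sample was grown with 5 mU/ml bovine TSH, so the wild type receptor was under hormone as well. In each line 2 arrays came from cells given 1 mM sodium iodide and 2 from cells given 1 mM sodium chloride. The salt was fitted as an additive term, so a difference is an average over both salts and can be larger in 1 of them. The series asked which genes respond to iodide when the thyroid cell is driven without its hormone. The labels give 1 line per receptor form and no duration of treatment. The receptor form and any other difference between the lines therefore cannot be told apart. The labels do not say whether replicates were separate cultures, so p-values measure the spread between these arrays, which can be technical.

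The TSH receptor is a G protein-coupled receptor of the follicular cell. It acts mainly through Gs, adenylyl cyclase and cAMP-dependent kinase, and at high hormone levels also through Gq and phospholipase C. These signals drive growth, iodide uptake and hormone synthesis of the follicular cell. L629F is a substitution in a membrane-spanning helix that activates the receptor without hormone and has been found in autonomous thyroid adenomas.

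The measurement was the MAS5 signal, a linear hybridisation intensity with 1 value per probe set and array. Differences are given as L629F minus wild type on the log2 scale with the standard error of the fit, so that 1 stands for a doubling. A probe set passed when its p adjusted over all 31042 probe sets was under 0.05. Where a gene had several probe sets, the brightest stood for it. The first principal component of the arrays, with 25.2% of the variance, separated the 2 lines without overlap, and the log2 signals of replicates correlated at 0.946 to 0.965 across probe sets above the dim limit, a signal of 65.4.

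Both lines had the profile of follicular cells. All 9 measured follicular markers were above the dim limit, and Tg, the hormone precursor thyroglobulin, had signals of 10748 to 13846 on wild type and 13609 to 16582 on L629F arrays. Of the leucocyte markers 5 of 16 were above the dim limit, of the C cell, fibroblast and endothelial markers 3 of 9, 3 of 12 and 3 of 9, and of the parathyroid markers 0 of 3. The summed leucocyte signal was 980 to 1206 on wild type and 1166 to 1246 on L629F arrays, and the fibroblast sum 488 to 588 and 480.5 to 889.9. The C cell sum was 3257 to 5667 and 2834 to 6228, the endothelial sum 671 to 885 and 698 to 879, and the parathyroid sum 131 to 181 and 85.7 to 196, so that the lines overlapped in each of the 5 lists. No array listed a marker at 0, and no member of these 5 lists passed. The part of other cells in the results was not tested. As in any bulk sample, fewer cells of a type and less RNA per cell cannot be told apart.

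In all, 261 probe sets passed. Of these 168 were higher in L629F cells (0.541% of those tested) and 93 lower (0.3%), and in 234 of the 261 all arrays of one line lay above all arrays of the other. Among all 31042 probe sets the lines were apart in this way in 1771 with L629F above and in 858 with L629F below. Without the adjustment 4715 probe sets had a p under 0.05, where 1552 would be expected with no difference. In terms of genes, 109 were higher (0.767% of 14217) and 64 lower (0.45%), and 45 of these 173 differed by at least 1 log2 unit, 41 of them higher and 4 lower. At an unadjusted p under 0.05 there were 1479 genes higher (10.4%) and 1004 lower (7.06%). The large differences were thus mostly rises in the L629F line, while falls were smaller in size.

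The split between higher and lower depended on how dim signals were treated. The 25th percentile of the signals was 29.3 to 31.6 on wild type and 40.8 to 43.1 on L629F arrays, without overlap (exact two-sided permutation test, p = 0.0286, the smallest that 4 against 4 arrays allow, and 0.0714 adjusted over 5 array measures). The median difference was 0.53 over probe sets at or below the dim limit and 0.01 above it. Centring each array on its overall median gave 180 higher and 1582 lower, since that centring moved the median of the probe sets above the dim limit to -0.20. Quantile normalization gave 178 higher and 88 lower, with a median over all probe sets of -0.01 in place of 0.10. The RNA quality ratios overlapped between the lines. The GAPDH 3′ to 5′ ratio was 1.82 ± 0.881 on wild type and 2.12 ± 0.407 on L629F arrays (SD, n = 4; exact two-sided permutation p = 0.543).

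**Figure D1:**
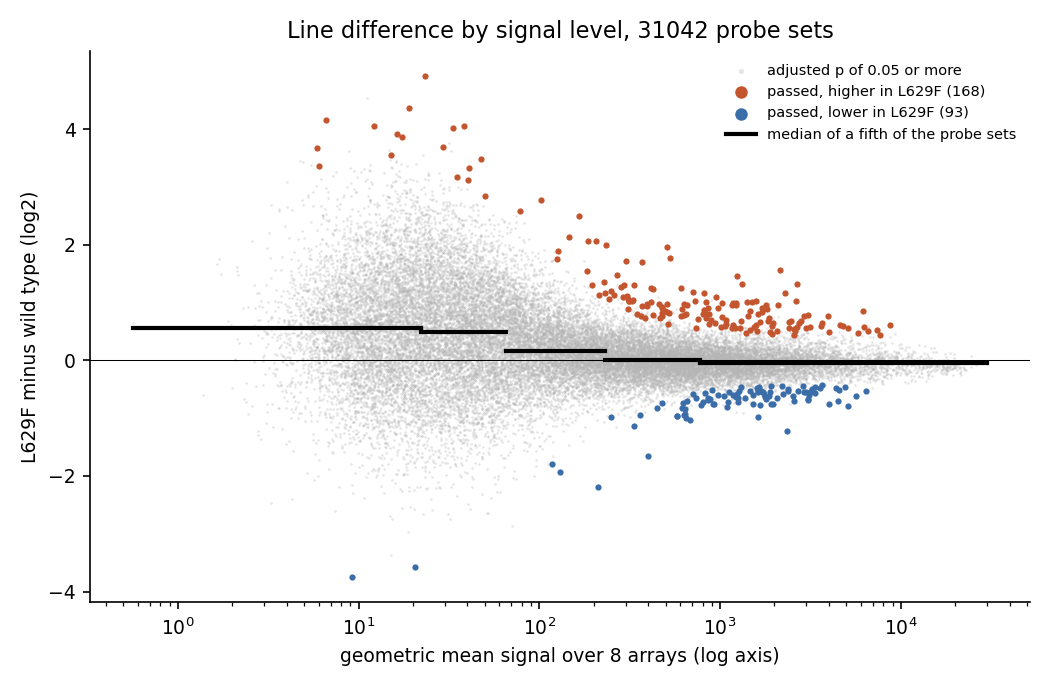
Each point is a probe set, with its geometric mean signal over the 8 arrays on a log axis and its L629F minus wild type difference (log2) on the other. Coloured points passed (168 higher, 93 lower), and black bars mark the median difference in each of 5 equal groups of probe sets by signal, which runs from 0.55 in the dimmest to -0.04 in the brightest.

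The number of arrays set how firmly the total could be stated. Without wild type chloride replicate 1 or 2 the count was 97 or 109, without L629F chloride replicate 1 or 2 it was 132 or 104, and without L629F iodide replicate 1 or 2 it was 90 or 154. The wild type iodide arrays mattered less (251 and 194). There were 68 probe sets that passed in all 8 fits without 1 array, and 51 genes whose brightest probe set did so. A fit that did not let the spread depend on signal level called 9 probe sets. Of these, 5 were among the 261 of the main fit, Cavin3 and Acsm1 included.

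The largest rises among genes with a signal of at least 200 in the higher line and with no overlap between the lines joined matrix, immune, mitochondrial and stress genes. Col4a6, a basement membrane collagen chain, had signals of 63.7 and 56.6 on wild type chloride and 72.4 and 93.4 on wild type iodide arrays, against 532 and 486 on L629F chloride and 263 and 358 on L629F iodide arrays. Every L629F array was above the highest wild type array, as the rule for naming these genes required. The difference was 2.49 ± 0.30 (adjusted p = 0.00153), and a second, dimmer probe set of Col4a6 gave 2.77 ± 0.48 (adjusted p = 0.0152). Wild type signals were near the dim limit, and with a pseudocount of 35.3 the brighter probe set gave 2.03 (adjusted p = 0.00454). The summed fibroblast markers also had their highest value on an L629F array, and their part in this result was not tested.

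Serpinf1 encodes a secreted serpin known as pigment epithelium-derived factor. It measured 316 and 441 on wild type chloride, 191 and 170 on wild type iodide, 1278 and 1155 on L629F chloride and 741 and 924 on L629F iodide arrays. Signals were lower with iodide than with chloride in both lines, and the lines stayed apart in each salt. The difference was 1.95 ± 0.17 (adjusted p = 5.1e-05).

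Nupr1, a small chromatin-associated protein of the cellular stress response, had the smallest adjusted p of all probe sets. Its signals were 1273, 1121, 1396 and 1234 on the wild type arrays and 3980, 3261, 3936 and 3662 on the L629F arrays. The lowest L629F signal thus exceeded the highest wild type signal by far, and salt made little difference. Nupr1 rose by 1.56 ± 0.10 (adjusted p = 8.8e-06), which is 2.95-fold.

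Of the other rises, Saa3, an acute phase apolipoprotein, rose by 2.14 ± 0.40, and RT1-Db1, a class II MHC beta chain, by 2.06 ± 0.26. Ucp1, the mitochondrial uncoupling protein best known from brown fat, rose by 1.99 ± 0.26. C1qtnf12, a secreted C1q-like protein, rose by 1.88 ± 0.39 and Rasgrf1, an exchange factor for Ras, by 1.75 ± 0.34. Gal3st4, a galactose sulfotransferase, rose by 1.69 ± 0.19, Slc7a11, the cystine transporter, by 1.48 ± 0.20, Chac1, a glutathione-degrading enzyme, by 1.47 ± 0.11, and Ociad2 by 1.35 ± 0.23. Of these 12 genes, 8 passed in all 8 fits without 1 array. Saa3 passed in 5, Ociad2 in 4, and C1qtnf12 and Rasgrf1 in 1 each (adjusted p up to 0.0855, 0.0617, 0.154 and 0.108). With the mean of the gene's probe sets, C1qtnf12 gave 1.43 (adjusted p = 0.108) and Rasgrf1 1.09 (adjusted p = 0.372).

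The largest fall was that of Cavin3, a coat protein of caveolae, the small flask-shaped pits of the plasma membrane. Its signals were 429, 447, 454 and 481 on wild type arrays and 102, 79.7, 112 and 107 on L629F arrays. The signals within a line were close to each other and the lines were far apart. Cavin3 fell by 2.19 on the log2 scale (SE 0.22, adjusted p = 0.000224), or 4.55-fold. It was the member of the caveola list of 10 measured genes that passed, where 0.45% of all genes passed as lower. The list's median was -0.14.

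Several of the next falls lay on the same chromosome, 4. Mest, an imprinted gene for a hydrolase-like protein, had signals of 3232, 3676, 3207 and 4448 on wild type and 1411, 1614, 1413 and 1757 on L629F arrays, a difference of -1.23 ± 0.12 (adjusted p = 0.000224). Gadd45a, a stress and growth arrest gene, had 3103, 2635, 2073 and 1603 on wild type arrays and 1603, 1200, 995 and 928 on L629F arrays. The lowest wild type and the highest L629F signal of Gadd45a nearly met, but they came from different salts, and within a salt the lines were well apart (-1.04 in chloride and -0.92 in iodide). Pdzrn3, a ubiquitin ligase, Ing3, a subunit of a histone acetyltransferase complex, and Adipor2, a receptor for adiponectin, also lie on chromosome 4 and gave -1.66 ± 0.21, -0.96 ± 0.14 and -0.83 ± 0.16.

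The other 6 of the 12 largest falls lay on chromosomes 7, 14, 17 and 19. Igfbp7, a secreted protein that binds insulin-like growth factors, had signals of 7145, 7201, 5277 and 7569 on wild type and 3649, 3796, 3927 and 4221 on L629F arrays (-0.79 ± 0.12, adjusted p = 0.00573). The brightest probe set of each of Pou6f1, a POU domain transcription factor, Calml3, a calmodulin-like protein, Nutf2, the carrier that brings Ran into the nucleus, Cnpy2, and Atp5me, an ATP synthase subunit, gave -0.76 to -0.95. Of the 12 falls, Cavin3, Pdzrn3, Mest, Gadd45a, Ing3 and Igfbp7 passed in all 8 fits without 1 array. Nutf2 passed in 7, Cnpy2 in 4, Pou6f1 and Adipor2 in 2, Atp5me in 1 and Calml3 in 0 (adjusted p up to 0.0664, 0.0905, 0.0876, 0.121, 0.136 and 0.138). Other probe sets went against the brightest one in some genes. The mean of the gene's probe sets gave 0.42 for Atp5me (adjusted p = 0.4), -0.40 for Ing3 (0.294), -0.25 for Adipor2 (0.381), -0.24 for Nutf2 (0.357) and -0.21 for Pou6f1 (0.798).

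**Figure D2:**
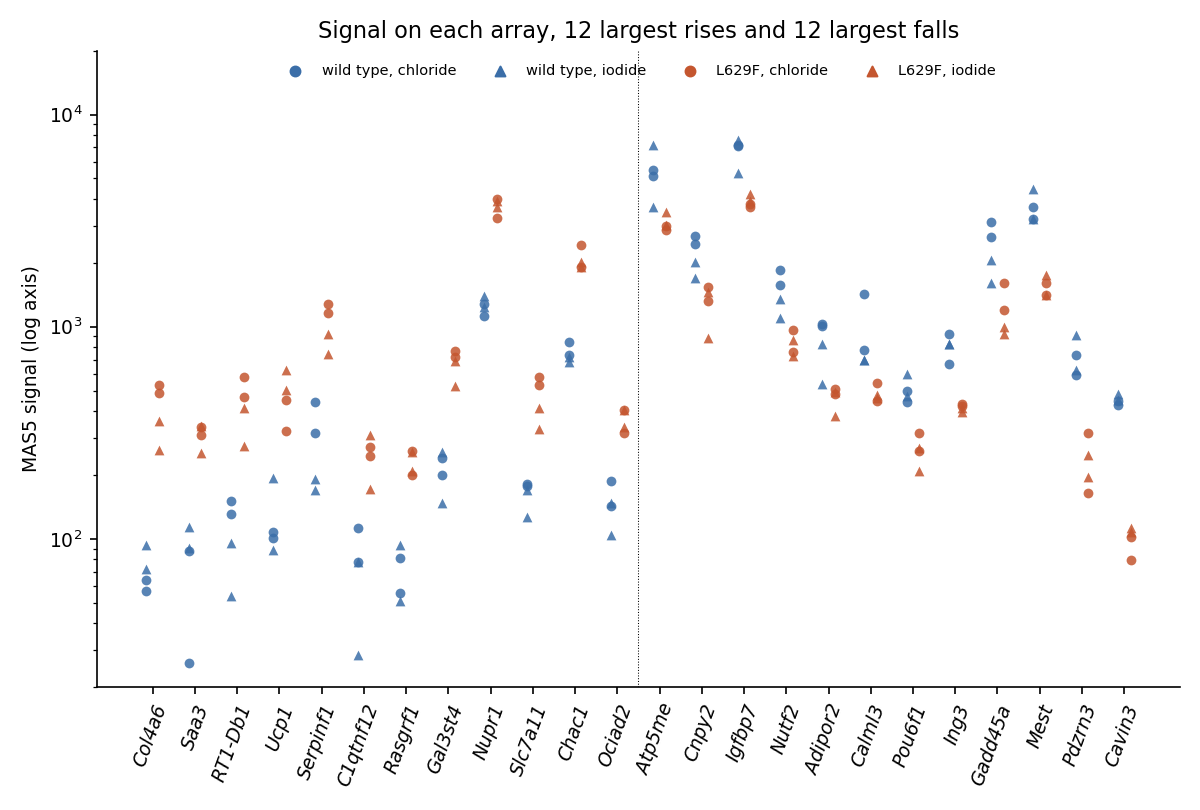
MAS5 signal (log axis) on each of the 8 arrays for the 12 genes with the largest rise (left of the dotted line) and the 12 with the largest fall (right) that passed with no overlap between lines. Colour gives the line and shape the salt, and each point is 1 array. For Nupr1 the wild type arrays lie between 1121 and 1396 and the L629F arrays between 3261 and 3980.

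Genes of amino acid supply and of the response to amino acid shortage and endoplasmic reticulum stress formed a large group among the rises. The transcription factor ATF4 is made when translation initiation is slowed by such stresses, and it turns on genes for amino acid import, amino acid synthesis and tRNA charging. Aminoacyl-tRNA synthetases join each amino acid to its tRNA, with separate enzymes in the cytosol and in mitochondria for most amino acids. Of the 38 measured genes of the unfolded protein response and ATF4 list, 9 were higher and 0 lower, where 0.767% of all genes were higher. At an unadjusted p under 0.05 there were 18 higher and 1 lower, against 10.4% and 7.06% of all genes. The list's median was 0.21 against 0.06 over all genes. With arrays centred on all probe sets the list's median was -0.001, and all genes shifted likewise.

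The gene that was lower was Atf4 itself. Its signal was 8238 ± 708 on wild type and 5927 ± 621 on L629F arrays (SD, n = 4) with no overlap, a difference of -0.48 ± 0.11 that did not pass (adjusted p = 0.0516). Trib3, a pseudokinase that binds ATF4, gave 0.50 ± 0.11 (adjusted p = 0.0534). Asns, the asparagine synthetase, was dim, at 7.51, 14.1, 62.4 and 5.63 on wild type and 89.1, 85.2, 93.5 and 62.3 on L629F arrays. The third wild type array reached the lowest L629F array, and the difference of 2.55 ± 0.79 did not pass (adjusted p = 0.15).

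The stress genes that passed were among the clearest in the data. Chac1 had signals of 736, 843, 684 and 719 on wild type arrays and 1913, 2417, 1903 and 2014 on L629F arrays (1.47 ± 0.11, adjusted p = 2.7e-05). Sesn2, a stress-induced inhibitor of mTORC1, had 1394, 1303, 1051 and 1269 on wild type and 2399, 2485, 2417 and 2022 on L629F arrays (0.90 ± 0.11, adjusted p = 0.00114). Herpud1, a protein of endoplasmic reticulum-associated degradation, rose by 0.65 ± 0.09 (adjusted p = 0.0047). No wild type array reached an L629F array in these genes, and each passed in all 8 fits without 1 array. Further such genes, picked once their values were known, were Inhbe, an inhibin beta chain (1.31 ± 0.20), Pck2, the mitochondrial phosphoenolpyruvate carboxykinase (0.90 ± 0.13), and Eif4ebp1, a translation repressor (0.76 ± 0.16).

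Of 19 measured cytosolic aminoacyl-tRNA synthetases 9 were higher and 0 lower, against 0.767% and 0.45% of all genes. At an unadjusted p under 0.05, 13 of these synthetases were higher, against 10.4% of all genes. This grouping and the 3 that follow were drawn up after the values had been seen, so the counts describe them and no more. A gene could stand in more than 1 list, that of the unfolded protein response and ATF4 included. The counts of the lists are therefore not separate evidence. Iars1, for isoleucine, measured 1731, 1674, 2521 and 1628 on wild type and 3346, 3794, 3976 and 4009 on L629F arrays (1.02 ± 0.12, adjusted p = 0.00146), and its other probe set gave 1.03. Lars1, for leucine, measured 2744, 2707, 3362 and 2983 on wild type and 4511, 4431, 4739 and 4731 on L629F arrays (0.65 ± 0.09, adjusted p = 0.00378). In both genes all L629F arrays lay above all wild type arrays, though a second, dim Lars1 probe set gave 0.14 and the mean of both 0.40 (adjusted p = 0.158). Yars1 for tyrosine, Sars1 for serine, Cars1 for cysteine, Eprs1 for glutamate and proline, Tars1 for threonine, Wars1 for tryptophan and Nars1 for asparagine rose by 0.44 to 0.60.

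Synthetases that did not pass included Vars1 (0.65, adjusted p = 0.0882), Hars1 (0.31), Gars1 (0.09), Rars1 (-0.01), Kars1 (-0.13) and Farsa (-0.16). The median over the 19 cytosolic genes was 0.44. Over 13 measured mitochondrial synthetases it was -0.05, with 0 that passed and 0 higher at an unadjusted p under 0.05. Without wild type chloride replicate 1 or 2 the cytosolic count was 2 or 4, without L629F chloride replicate 1 or 2 it was 5 or 2, and without L629F iodide replicate 1 or 2 it was 4 or 5. It was 2 with arrays centred on all probe sets, where the list's median was 0.23 and that of the mitochondrial list -0.27. Eprs1 did not pass by the mean of its 4 probe sets (adjusted p = 0.258).

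Amino acid transporters followed, with 4 of 16 measured genes higher, against 0.767% of all genes. Slc38a2, a sodium-coupled carrier of small neutral amino acids, had 2767, 2528, 2293 and 1852 on wild type and 4466, 4286, 3800 and 3550 on L629F arrays (0.78 ± 0.10, adjusted p = 0.002). Slc7a11 had 177, 181, 171 and 126 on wild type and 580.2, 530, 329 and 412 on L629F arrays (adjusted p = 0.00271). Slc7a5, the light chain of the large neutral amino acid carrier, rose by 0.88 ± 0.16 and Slc1a5, the glutamine carrier, by 0.62 ± 0.11. Of 12 measured genes of serine, glycine, asparagine and proline synthesis, 3 were higher. They were Phgdh and Psph, the first and the last enzyme of serine synthesis (0.59 ± 0.09 and 0.82 ± 0.13), and Aldh18a1, an enzyme of proline synthesis (0.76 ± 0.12).

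The promoters of the genes that rose were read for the C/EBP-ATF response element, the site at which ATF4 binds with a C/EBP partner. The letters searched were TGATGNAA on both strands, in the 250 bases before the start given in the RefSeq promoter table of the rat build GRCr8. Stretches of 60 bases from 6 of the 14 genes that rose and held these letters are shown as examples of a match. They were picked after their values were seen, 5 for a role in stress or amino acid use, and Serpinf1. They run 5′ to 3′ on the strand of the gene, and capitals mark the match.
Nupr1, chr1:190645923-190645982, minus strand: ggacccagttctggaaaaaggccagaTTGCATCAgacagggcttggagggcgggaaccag
Chac1, chr3:126795938-126795997, plus strand: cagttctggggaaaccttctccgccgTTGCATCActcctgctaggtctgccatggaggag
Serpinf1, chr10:60760986-60761045, minus strand: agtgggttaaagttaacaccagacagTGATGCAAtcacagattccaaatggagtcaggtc
Inhbe, chr7:65064710-65064769, minus strand: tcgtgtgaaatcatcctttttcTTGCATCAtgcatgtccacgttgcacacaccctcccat
Pck2, chr15:32997603-32997662, plus strand: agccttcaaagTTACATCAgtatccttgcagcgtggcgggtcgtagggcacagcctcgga
Tars1, chr2:62114803-62114862, minus strand: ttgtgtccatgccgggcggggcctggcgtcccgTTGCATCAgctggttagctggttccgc
The match ended 47 bases before the start in Nupr1, 159 in Chac1, 113 in Serpinf1, 220 in Inhbe, 231 in Pck2 and 19 in Tars1.

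Of the 109 genes that were higher, 85 had an entry in the promoter table, and 14 of these held the letters (16.5%). Among all 11733 measured genes with an entry 258 held them (2.20%), among the 8423 above the dim limit 152 (1.80%), and among 50 genes that were lower 0. By group, 5 of 17 cytosolic synthetases held them (29.4%), against 0 of 13 mitochondrial ones, and 7 of 34 genes of the unfolded protein response and ATF4 list. These groups can share genes. The cAMP response element, the site of CREB, was read in the same way with the letters TGACGTCA. It was present in 1 of the 85 higher genes (1.18%), in 2 of 50 lower genes (4%), in 318 of all 11733 (2.71%) and in 6 of 21 genes of the list of cAMP-induced genes (28.6%). The matches of the 2 motifs did not overlap in any of the 5 genes that held both. In 4 of the 14 genes, Iars1, Herpud1, Ripor2 and Fabp3, the table's start was not the end of the gene in the RefSeq gene table. Over windows at that end, a restriction chosen after seeing the data, 10 of 45 higher genes held TGATGNAA (22.2%), against 124 of 5407 measured genes (2.29%) and 0 of 22 lower genes. A match describes the letters in this window and is no measure of binding.

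**Figure D3:**
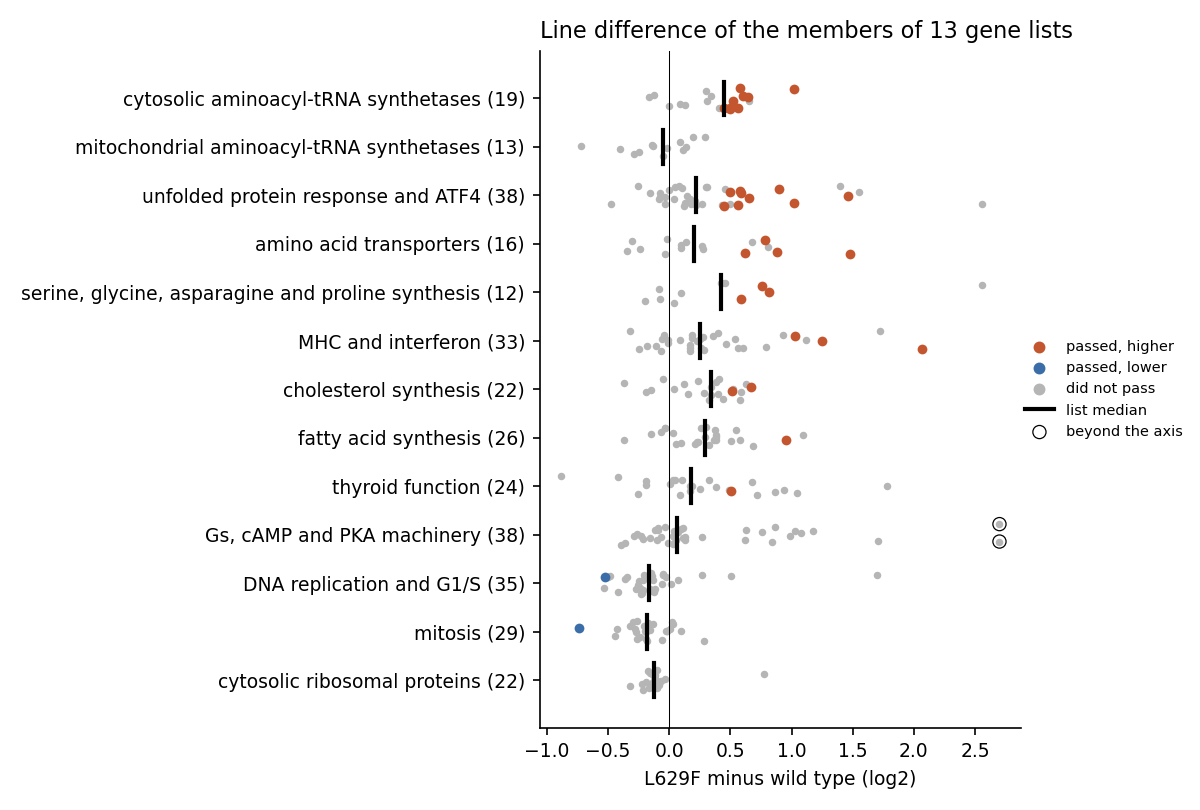
Each point is a measured gene of a list (number in parentheses), placed by its L629F minus wild type difference (log2), with colour for those that passed and a black bar at the list's median. The cytosolic synthetases have a median of 0.44 and 9 coloured points, the mitochondrial ones a median of -0.05 and none, and 2 members of the Gs list (Gng2 at 2.98 and Pkib at 3.01, both dim) lie beyond the axis.

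Class II MHC genes, which present antigen on the cell surface and can be expressed by thyroid follicular cells, were higher in part. In the list of MHC and interferon genes 3 of 33 were higher, against 0.767% of all genes, and 0 lower. The 3 were among 8 listed genes of class II presentation. RT1-Db1 measured 130, 150, 95.5 and 53.9 on wild type and 582, 469, 412 and 275 on L629F arrays. Cd74, the invariant chain that accompanies class II molecules, measured 1530, 1500, 758 and 841 on wild type and 2384, 3337, 1758 and 1813 on L629F arrays (1.03 ± 0.12, adjusted p = 0.00107). In both genes the iodide arrays of each line were below its chloride arrays, and the lines did not overlap. RT1-Da, the class II alpha chain, rose by 1.25 ± 0.23 (adjusted p = 0.0201). RT1-Ba (0.79 ± 0.35, adjusted p = 0.304), RT1-Bb (1.11 ± 0.42, adjusted p = 0.237) and the class II transactivator Ciita (0.93 ± 0.45, adjusted p = 0.348) did not pass. Nor did RT1-DMa and RT1-DMb, chains of the peptide loading factor, with -0.01 ± 0.14 and -0.04 ± 0.12. MHC genes have close relatives, so a signal may come from more than 1 of them. A second probe set of RT1-Db1 gave 0.96 ± 0.28 and did not pass (adjusted p = 0.125). The mean of its probe sets gave 1.51 (adjusted p = 0.00831). RT1-Db1 and Cd74 passed in all 8 fits without 1 array and RT1-Da in 3 (adjusted p up to 0.0822).

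Few lipid synthesis genes passed, though most had values above 0. In the cholesterol list 2 of 22 measured genes were higher, against 0.767% of all genes. They were Sc5d, a desaturase near the end of the pathway (0.67 ± 0.09, adjusted p = 0.00348), and Fdps, which makes farnesyl diphosphate (0.51 ± 0.10, adjusted p = 0.0298). At an unadjusted p under 0.05 there were 12 higher and 0 lower, where 10.4% of all genes were higher and 7.06% lower. The median was 0.34 against 0.06 over all genes. In the fatty acid list 1 of 26 was higher, against the same 0.767%, with 13 higher and 0 lower unadjusted and a median of 0.30. The gene that passed was Thrsp, a regulator of lipogenesis, with 2793 and 2615 on wild type chloride, 960 and 731 on wild type iodide, 4578 and 4400 on L629F chloride and 1804 and 1980 on L629F iodide arrays. Iodide arrays were lower in both lines, so that L629F iodide signals lay below wild type chloride signals, yet within a salt the lines were apart (0.73 in chloride and 1.17 in iodide). Thrsp and Sc5d passed in all 8 fits without 1 array, and Fdps in 1 (adjusted p up to 0.132). With arrays centred on all probe sets the medians were 0.12 and 0.08 and Fdps did not pass (adjusted p = 0.0951).

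Genes of DNA replication and mitosis had lower values in the L629F line, with few that passed. Of 35 measured replication genes 0 were higher and 1 lower, Mcm2, a subunit of the replicative helicase (-0.53 ± 0.10, adjusted p = 0.0286). Over all genes 0.45% passed as lower. At an unadjusted p under 0.05, 12 were lower and 1 higher, where 7.06% of all genes were lower and 10.4% higher. The median of the replication genes was -0.17, against 0.06 over all genes. Over all genes above the dim limit with a chromosome the median was -0.005, and 9.62% were lower unadjusted. Of 29 mitosis genes 1 was lower, Foxm1, a transcription factor of the G2 and M phases (-0.74 ± 0.14, adjusted p = 0.0215), with 9 lower and 0 higher unadjusted and a median of -0.18. Both genes lie on chromosome 4. Without the genes of that chromosome 11 of 33 and 7 of 27 genes above the dim limit were lower unadjusted, against 8.07% of all genes above it on the other chromosomes. The medians of these 33 and 27 genes were -0.17 and -0.18, against -0.19 and -0.18 for the 34 and 29 genes above that limit with chromosome 4 included. Leaving out single arrays, Mcm2 held its call in 1 fit and Foxm1 in 2, with adjusted p up to 0.115 and 0.0946.

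In the list of thyroid function 1 of 24 measured genes passed, as higher, where 0.767% of all genes were higher. Duox2, the oxidase that makes hydrogen peroxide for hormone synthesis, passed with 1480, 1313, 1374 and 1203 on wild type and 2251, 2024, 1697 and 1691 on L629F arrays (0.51 ± 0.10, adjusted p = 0.0371). It held its call in 1 of the 8 smaller fits (adjusted p up to 0.13) and not with arrays centred on all probe sets (0.29, adjusted p = 0.139). Of the 24 measured members 6 were higher and 0 lower at an unadjusted p under 0.05, where 10.4% of all genes were higher and 7.06% lower. There were 19 values above 0, and the median was 0.18 (-0.04 with that centring).

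The symporter Slc5a5, which brings iodide into the cell, had 2819, 2928, 825 and 1385 on wild type and 1980, 2761, 1027 and 2149 on L629F arrays. The lines overlapped, with a difference of 0.09 ± 0.23 (adjusted p = 0.891). Tg gave 0.25 ± 0.11 (adjusted p = 0.292) by its brightest probe set and -0.02 by a second. The transcription factors Pax8, Nkx2-1, Foxe1 and Hhex gave 0.11 ± 0.12, 0.05 ± 0.13, -0.19 ± 0.11 and 0.01 ± 0.10, and the deiodinase gene Dio1 0.49 ± 0.17, none of which passed. With arrays centred on all probe sets Foxe1 gave an adjusted p of 0.0454. Rat Tshr gave 0.38 ± 0.17 (adjusted p = 0.308), and whether its probe set detects the human transcript was not tested. Iyd and Slc26a4 were dim (58.4 to 116 and 12 to 83.8 on wild type arrays), and their differences of -0.88 ± 0.61 and 1.05 ± 0.67 did not pass.

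The genes of the receptor's own signalling chain showed few differences that passed. Of 38 measured genes of Gs, adenylyl cyclase and cAMP-dependent kinase 0 passed, and 4 were higher and 3 lower at an unadjusted p under 0.05, with a median of 0.06. Over all genes 0.767% passed as higher and 0.45% as lower, 10.4% were higher and 7.06% lower unadjusted, and the median was also 0.06. Among 30 genes of cAMP breakdown and receptor desensitization, Rgs10, a GTPase activator for Gi-type subunits, was higher (0.80 ± 0.17, adjusted p = 0.0412). Among 32 genes of Gq, phospholipase C and protein kinase C, Prkch, a kinase C isoform, went from signals of 4.32 to 13.7 on wild type to 78.5 to 144 on L629F arrays (3.70 ± 0.68, adjusted p = 0.021). The wild type signals of Prkch lay far below the dim limit, and the size of its difference depended on the pseudocount: with 35.3 added it was 1.68 (adjusted p = 0.0153).

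Of 27 measured cAMP-induced genes 5 were higher and 5 lower at an unadjusted p under 0.05, against 10.4% and 7.06% of all genes. The list's median was -0.01. After adjustment 0 were higher and 1 was lower, against 0.767% and 0.45% of all genes. This was Areg, the growth factor amphiregulin, with 987, 1075, 2794 and 2302 on wild type and 853, 710, 1302 and 1180 on L629F arrays (-0.72 ± 0.14, adjusted p = 0.0255). It was higher on iodide arrays in both lines, and within each salt L629F arrays lay below wild type arrays. Among matrix genes, Fn1, fibronectin, had 698, 871, 384 and 289 on wild type and 1271, 1736, 664 and 798 on L629F arrays (1.03 ± 0.15, adjusted p = 0.00477), and Mmp14, a membrane-bound metalloproteinase, gave -0.46 ± 0.10 (adjusted p = 0.0415, and -0.12 with the mean of its probe sets). As for Col4a6, the part of the fibroblast markers in these was not tested. Id4 and Id3, inhibitors of bHLH factors, went in opposite directions (0.56 ± 0.10 and -0.49 ± 0.10). Rgs10 passed in 0 of 8 fits without 1 array, Mmp14 in 1, Areg and Id3 in 2, Prkch in 3, Id4 in 4 and Fn1 in 8. With arrays centred on all probe sets Rgs10 and Id4 did not pass (adjusted p = 0.0627 and 0.0662), nor did Prkch by the mean of its probe sets (0.0885).

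The genes that were lower were unevenly spread over the chromosomes. Among 10010 genes that were above the dim limit and had a chromosome, 101 were higher (1.01%) and 63 lower (0.629%), and at an unadjusted p under 0.05 there were 969 higher (9.68%) and 963 lower (9.62%). Chromosome 4 held 546 of these genes, or 5.45%, and 30 of the 63 that were lower, or 47.6%. None of its genes was higher (0 of 546). At an unadjusted p under 0.05, 199 of its genes were lower (36.4%) and 24 higher (4.40%), against 8.07% lower and 9.99% higher on the other chromosomes. The median difference of its genes was -0.21, and that of all other genes 0.00.

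The shift was present in each salt and on each array. In chloride the median of chromosome 4 was -0.20 and in iodide -0.22, from arrays that the comparisons do not share. The sign was negative in both salts for 334 of the 546 genes (61.2%), against 31.2% of the other genes. The median log2 deviation of the chromosome 4 genes from their mean over all 8 arrays, less that of the other genes, was 0.096 to 0.121 on the wild type arrays and -0.078 to -0.131 on the L629F arrays. In 3 equal groups by signal the median of chromosome 4 was -0.06, -0.21 and -0.28 from dim to bright, against 0.14, -0.02 and -0.04 on other chromosomes, so that it lay below them at each level. The shift against the other chromosomes was -0.22, and over the alternatives it ran from -0.23 to -0.18.

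Next after chromosome 4 came chromosome 14, with a median of -0.11 and 17.1% of its genes lower at an unadjusted p under 0.05. The highest medians were 0.09 on chromosomes 17 and 18. The medians of all the others lay between -0.05 and 0.07. Copy number of the chromosomes was not measured, and its part in the shift was not tested.

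**Figure D4:**
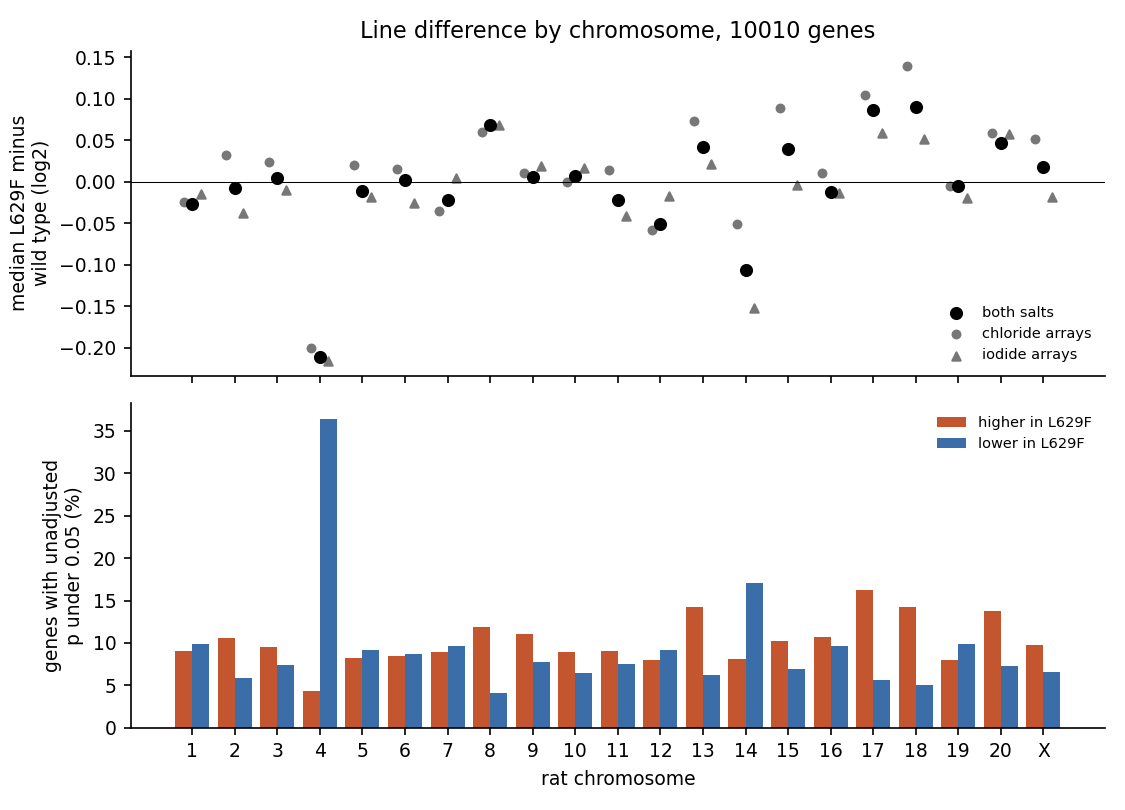
The upper panel gives the median L629F minus wild type difference (log2) of the genes above the dim limit on each rat chromosome, over both salts (black) and within each salt (grey). The lower panel gives the percentage of these genes with an unadjusted p under 0.05 in each direction. Chromosome 4 stands at -0.21 with 36.4% of its genes lower.

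The lower values extended over nearly the whole chromosome. In 14 blocks of 39 neighbouring genes, the first, from Dnajb6 to Lrrc17, had a median of 0.01 and 3 genes lower and 3 higher at an unadjusted p under 0.05. The other 13 blocks had medians from -0.32 to -0.14, with 9 to 20 genes lower in each at that level. The block from Fancd2 to Mical3 was lowest, with 35 of 39 genes negative. The block from Mest to Ephb6 held most genes that passed (5).

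Windows of 15 neighbouring genes were searched on every chromosome, and those with 3 or more genes that passed in 1 direction all lay on chromosome 4. Of these, 3 that did not share genes are described, with ties in the count settled by the size of the median. The first, from Mest to Stmp1, held 5 that were lower. Besides Mest these were Nup205, a scaffold protein of the nuclear pore, Chchd3, a protein of mitochondrial cristae junctions, Stmp1 and Mkln1. Nup205 measured 3104, 3429, 3375 and 3131 on wild type and 1920, 2058, 1911 and 2155 on L629F arrays (-0.70 ± 0.09, adjusted p = 0.00284). Chchd3 measured 2162, 2172, 2151 and 2045 on wild type and 1373, 1447, 1437 and 1454 on L629F arrays (-0.58 ± 0.09, adjusted p = 0.0092). Both had narrow groups that did not overlap, with 1.62 and 1.49 times as much signal in the wild type line.

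The window from Mrpl53 to Nagk held Mogs, the glucosidase that starts N-glycan trimming (-0.54 ± 0.11), Bola3, a factor of mitochondrial iron-sulfur cluster assembly (-0.53 ± 0.10), and Tex261 (-0.53 ± 0.11). The window from Zfp637 to Il17ra held Zfp637 (-0.72 ± 0.11), Hnrnpf, an RNA-binding splicing regulator (-0.61 ± 0.13), and Adipor2. A further window of chromosome 4, with Ldhb, C2cd5 and Etnk1 as its 3 genes, tied with these in the count. The medians of the 3 windows were -0.38, -0.48 and -0.42. In no window on any chromosome did more than 2 genes pass as higher.

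The number of chromosome 4 genes that passed depended on the arrays. Without wild type chloride replicate 1 or 2 it was 10 in each case, without L629F chloride replicate 1 or 2 it was 16 or 8, and without L629F iodide replicate 1 or 2 it was 10 or 18. The wild type iodide arrays gave 22 and 20. The shift of the median was steadier and lay between -0.23 and -0.21 in these 8 fits. Of the genes of the windows, Mest, Nup205, Chchd3 and Zfp637 passed in all 8, and Mkln1 and Mogs in 0 (adjusted p up to 0.151 and 0.118).

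**Figure D5:**
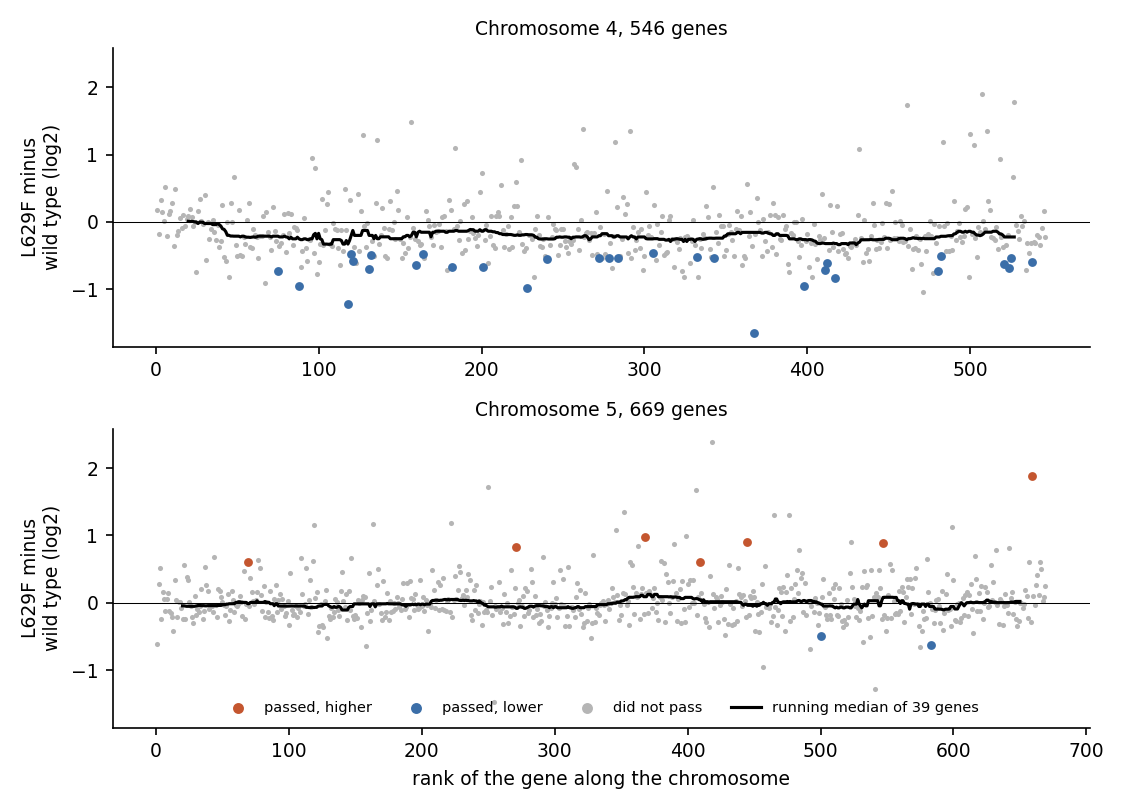
L629F minus wild type difference (log2) of genes above the dim limit in their order along chromosome 4 (546 genes, upper panel) and chromosome 5 (669 genes, lower panel), with a running median of 39 genes. On chromosome 4 the line leaves zero after the first block of 39 genes, and all 30 genes that passed are lower. On chromosome 5, 7 that passed are higher and 2 lower.

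The difference between the lines was then set out by salt, in comparisons whose means share no array. Their p-values came from the same fit, which took its spread from all 8 arrays, so the p-values of the 2 salts are not independent. In chloride alone 15 probe sets passed (0.0483%), 12 higher and 3 lower, and in iodide alone 21 (0.0677%), 18 higher and 3 lower. All 15 of chloride had the same sign and an unadjusted p under 0.05 in iodide, with a median size of 1.43 in chloride and 1.26 in iodide. Of the 21 of iodide, 20 had the same sign in chloride and 18 also an unadjusted p under 0.05, with a median size of 1.26 in iodide and 1.05 in chloride. There were 11 that passed in both. Across all probe sets the 2 differences correlated at 0.19, and at 0.36 above the dim limit. This is a correlation across probe sets, which are not independent replicates.

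Genes that passed in both salts, apart from those above, included Sult1c2, Cd47 and Cyp2f4, which were picked once their values were known. Sult1c2, a sulfotransferase, measured 1031, 942, 752 and 683 on wild type and 2769, 2549, 1682 and 1648 on L629F arrays (1.32, adjusted p = 2.9e-05). Cd47, the surface protein that inhibits phagocytosis, measured 848, 933, 1140 and 1356 on wild type and 1819, 1856, 2405 and 2503 on L629F arrays. Cyp2f4, a cytochrome P450, measured 2601, 2740, 1202 and 960.5 on wild type and 5102, 5387, 3346 and 3512 on L629F arrays. Sult1c2 and Cyp2f4 were lower and Cd47 higher on iodide arrays of both lines, and in each of the 3 genes all L629F arrays lay above all wild type arrays.

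A dependence of the line difference on salt was not detectable. Of 31042 probe sets 0 passed for the interaction of receptor and salt in limma (0%, smallest adjusted p = 0.998), and 1333 had an unadjusted p under 0.05 (4.29%). With 2 arrays in each group this says little of small interactions. The counts within a salt also depended on single arrays. Over the 8 fits without 1 array the chloride count ran from 0 to 31 and the iodide count from 0 to 15, with 0 in chloride without wild type chloride replicate 1 or 2 or L629F chloride replicate 1, and 0 in iodide without either L629F iodide array.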

How the data were processed

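Total RNA of 8 FRTL-5 samples was labelled with biotin and hybridised to Affymetrix rat arrays (labels' protocols). The authors deposited linear intensities, and the submitters' processing notes name MAS5. Its version and scaling target: not given in the sources used here. The mean of the middle 96% of signals was 500.2 on every array, so arrays had been scaled before deposit.

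The 57 control probe sets were left out and log2 signals of the other 31042, without pseudocount, filter or centring, were fitted in limma 3.58.1 (R 4.3.3; lmFit, eBayes with intensity trend) on line and salt (residual df 5, prior df 9.51), with two-sided Benjamini-Hochberg adjustment at 0.05. Interaction and within-salt contrasts came from a fit of 4 group means. The limit for dim signals was the 40th percentile of mean log2 signal. The number of arrays limits the precision: the median SE was 0.37, and 0.18 above that limit. Symbols came from the platform annotation (20826 probe sets with 1 symbol, 436 with several, 9780 with none, 14217 genes), updated through the GRCr8 gene table (20758 matched), which also gave gene order. The fit was tested on simulated data. Tables and figures used Python 3.11.15, pandas 2.3.3, numpy 2.4.6, data.table (version 1.17.8) and matplotlib 3.10.9.

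Genes named are the 12 largest rises and falls that passed, with lines apart and a signal of at least 200 in the higher line, thyroid genes, up to 6 members per list by smallest p, the 5 smallest p of the interaction, and genes that passed in 3 windows of 15 neighbours; others are marked. The comparison, the 32 lists and 4 amino acid families were chosen with earlier results of these data known. Alternatives changed pseudocount, dim filter, scaling, variance trend, salt term, replicate block, threshold, probe set choice and arrays; loess and the GAPDH ratio were added after seeing the data.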

Additional observations from a re-analysis of the deposited data

Results flagged for a closer look

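In 5 of 102 groups of 4 arrays looked at, 1 wild type array stood apart from the other 3 on the log2 scale, and chance alone gives about 1 in 20 such groups. These were Slc7a11 (the lone array at 6.98, iodide replicate 2), Igfbp7 (12.4, iodide replicate 1), Foxe1 (12.5, iodide replicate 1), Calml3 (10.5, chloride replicate 1) and Dio1 (8.23, chloride replicate 2). Slc7a11 and Igfbp7 passed in all 8 fits without 1 array, and Calml3 passed in 0.

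In 4 genes every L629F array moved one way against the wild type arrays in chloride and the opposite way in iodide, and for none did the interaction pass (smallest adjusted p over all probe sets 0.998). The line difference in iodide less that in chloride was 2.09 for Pip5k1a, a lipid kinase, 1.23 for Aplp2, a relative of the amyloid precursor protein, -1.47 for Pin4, a prolyl isomerase, and -7.24 for Loxl2, a lysyl oxidase relative. Pip5k1a measured 539 and 410 on wild type chloride, 157 and 157 on wild type iodide, 359 and 296 on L629F chloride and 441 and 486 on L629F iodide arrays. All signals of Loxl2 were between 3.1 and 79, near or below the dim limit. Zswim8, also among the 5 smallest interaction p-values, differed by -0.02 in chloride and by 1.01 in iodide.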

How the results depend on the processing

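Counts of probe sets that passed (261, with 168 higher and 93 lower; 15 in chloride and 21 in iodide), of chromosome 4 genes that passed as lower and higher (30 and 0) and of cytosolic synthetases that passed as higher (9) changed with the processing as follows. The pseudocount of 35.3 gave 6 in chloride and 8 in iodide, and that of 100 gave 60 lower, 5 in chloride, 6 in iodide and a chromosome 4 shift of -0.18. Leaving out the dimmest 40% gave 3 higher on chromosome 4, and with the pseudocount of 35.3 also 432 (280 higher, 152 lower), 37 in chloride, 33 in iodide and 3 higher on chromosome 4. Centring on all probe sets gave 1762 (1582 lower), 26 in chloride, 192 lower on chromosome 4 and 2 synthetases. No intensity trend gave 9 (7 higher, 2 lower) and 0 in chloride, iodide, chromosome 4 and the synthetases. No salt term gave 132 (95 and 37), 12 lower on chromosome 4 and 3 synthetases. The threshold of 0.01 gave 65 (51 and 14), 3 in chloride, 6 in iodide, 7 on chromosome 4 and 2 synthetases. The brightest probe set per gene gave 24 in chloride, and averaging the probe sets of a gene 161 (49 lower), 12 in iodide and 0.42 in place of -0.76 for Atp5me. Quantile normalization, loess and both probe set choices gave 1 gene higher on chromosome 4. The GAPDH ratio as a covariate gave 472 (305 and 167) and 2 higher on chromosome 4. The causes were not tested.

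Without 1 array the counts ran from 90 to 251 (65 to 169 higher, 20 to 82 lower), from 0 to 31 in chloride, from 0 to 15 in iodide, from 8 to 22 for chromosome 4 and from 2 to 9 for the synthetases. Same-numbered replicates of 2 groups deviated together with correlations of 0.026 to 0.164, all positive but not all over 0.1. The numbers were therefore not taken as pairing samples in the main fit. In every group replicate 2 had the higher second principal component and the higher GAPDH and actin 3′ to 5′ ratios. An effect shared by same-numbered replicates was not tested and may be present. With the replicate block 569 passed (335 higher, 234 lower), 140 in chloride, 107 in iodide, and 61 lower and 1 higher on chromosome 4. Of 65 named genes that passed, 60 were kept by quantile normalization, 57 by loess, 55 by centring on all probe sets and 1 without the trend. The interaction gave 0 under the alternatives run.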
